A study of Danio rerio with 8 samples.

Results

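The question here is whether the spinal cord of zebrafish that lack a working mstnb gene changes after transection by a different amount than the spinal cord of wild-type siblings. The measure is the genotype by injury interaction, the injury change in mutants minus the injury change in wild type, read after genes that follow egg transcripts are taken out. A gene was taken out when its log2(CPM + 1), CPM being reads scaled to a common library total, had a Pearson correlation above 0.8 over the 8 libraries with an egg score. That score is the mean log2(CPM + 1) of the 6 egg genes zp3a.1, zp3f.1, zp3e, zp2.2, zar1l and h1m. Of 25309 entries, 24989 (98.7%) were kept and 320 (1.26%) were removed. Of the kept genes, 18819 reached a group mean of 1 CPM somewhere and were tested, and the other 6170 did not. The 8 libraries that gave the interaction also chose the genes, so how many kept genes were called, and in which direction, is a description and not evidence.

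There were 4 groups of 2 libraries each: uninjured cord of wild-type siblings, wild-type cord at 1 week post injury (1 wpi), uninjured cord of mstnb mutants (-/-), and mutant cord at 1 wpi. Injury was a complete cut of the cord 4 mm caudal to the brainstem, and the sample was a 2 mm piece of cord with the lesion and tissue on both sides of it. The fish were males and females of 3 to 9 months and about 2 cm. The labels describe a sham operation but call the controls uninjured, and they do not say how many fish or which sexes went into a library, so a p-value here reflects how far the sequenced libraries of a group differ, part of which may be technical. The mutation is present in every tissue, and the allele is not given in the sources used here. One injured wild-type column carries the number 3, which no label has; it was placed by its group name and is called injured wild type 3.

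Myostatins are secreted factors of the TGF-beta family that bind activin type II receptors, signal through Smad proteins and are best known for holding back muscle growth. Adult zebrafish regrow a cut spinal cord: glial cells that line the central canal divide and bridge the lesion, new neurons form and axons grow across, while immune cells enter and fibroblast-like cells lay down collagen and other matrix for a time. Egg coat and other oocyte transcripts are made in the ovary and have no known role in the cord.

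Depth ran from 20082006 to 33409826 reads per library. Markers of the labelled tissue were high: the sum over 22 oligodendrocyte and myelin genes was between 56764 and 150053 CPM in every library, and that over 44 genes of mature neurons between 6596 and 18631 CPM. Libraries of a group lay further apart in uninjured cord, with a median absolute log2 difference per gene of 0.586 in wild type and 0.524 in mutants, than at 1 wpi, with 0.258 and 0.240. Fits without 1 library were run as alternatives, and they leave the group of that library with 1. The spread of that group then no longer enters the test. Without an uninjured wild-type library the widest of these spreads is dropped, so a pass in that fit is not support for a single gene. Markers of other tissues were present at unequal levels. The summed level of 34 oocyte genes was 2477 and 449 CPM in uninjured wild type 1 and 2, 63.2 and 74.4 CPM in injured wild type, 214 and 86.3 CPM in uninjured mutants and 2928 and 865 CPM in injured mutants. The summed level of 49 skeletal muscle genes was 33253 and 9278 CPM in uninjured wild type, 2259 and 2867 CPM in injured wild type, 16886 and 17453 CPM in uninjured mutants, and 4523 and 4769 CPM in injured mutants. In whole tissue, fewer cells of a type and less RNA per cell cannot be told apart.

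The targeted gene mstnb was measured at 48.8 and 74.8 CPM in uninjured wild type, 45.2 and 42.2 CPM in injured wild type, 10.2 and 26.4 CPM in uninjured mutants, and 11.9 and 17.7 CPM in injured mutants. The highest mutant value was below the lowest wild-type value. Its interaction was 0.20 ± 0.60 on the log2 scale (SE, limma, Benjamini-Hochberg adjusted p = 1.00, 95% interval from -1.11 to 1.5). All log2 changes are given relative to the median change of all 19114 genes tested, because another scaling of the libraries (TMM) moved that median by -0.12 for the interaction. The p-values belong to the changes before this shift.

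The egg score itself ran opposite ways in the genotypes. It was 7.22 and 4.51 in uninjured wild type and 0.69 and 0.60 in injured wild type, against 3.51 and 1.72 in uninjured mutants and 7.55 and 5.82 in injured mutants, which makes an interaction of 9.29 for the score. Of its genes, zp3a.1, which codes for an egg coat protein, was at 304 and 43.0 CPM in uninjured wild type, 0.846 and 0.529 CPM in injured wild type, 14.9 and 0.878 CPM in uninjured mutants and 348 and 98.4 CPM in injured mutants. Its interaction was 11.11 ± 1.38 (limma, adjusted p = 0.00477). The other 5 genes of the score had interactions from 7.48 for h1m, a linker histone of the oocyte, to 10.27 for zp3f.1, another egg coat gene, each with the same adjusted p. zp3a.1 passed under 16 of 19 alternative settings. It missed the threshold with edgeR (0.0997), without uninjured mutant 2 (interaction 9.32) and with the egg score itself as a covariate (limma, 0.978). Because zp3a.1 is part of that score, the covariate fit cannot inform on it or on the other 5 genes. The genes of the score were chosen with earlier results of these data known. Their p-values and passes are therefore descriptions and not evidence. Among all genes tested, 108 (0.565%) passed adjusted p under 0.05 in the interaction, 107 of them higher and 1 lower, and the 107 higher ones were all among the removed genes. The count over all genes was 0 with edgeR, 222 with DESeq2 and 36 with TMM scaling. It was 350 without uninjured wild type 2, 54 and 59 without injured wild type 1 and 3, 33 and 0 without uninjured mutant 1 and 2, and 52 without injured mutant 1.

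After removal 1 of 18819 kept genes passed, the collagen gene col1a1a, where 0.565% of all genes tested had passed. At an unadjusted p under 0.05, which 3.24% of all genes tested reached, there were 267 kept genes higher, beside 2.75% of all genes tested, and 93 lower, beside 0.487%. The median absolute interaction of the kept genes was 0.312 and the median SE was 0.589, so that a 95% interval reached 1.28 to each side at the median. A difference in injury response of less than about that size was not detectable for a typical gene at 2 libraries per group. A call needed more, because that interval is not adjusted for the number of genes. The largest unadjusted limma p that was called was 2.73e-04. Among the removed genes the smallest interaction called was 2.91. There were 1208 kept genes (6.42%) with an interaction beyond 1 in either direction and 70 beyond 2.

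**Figure D1:**
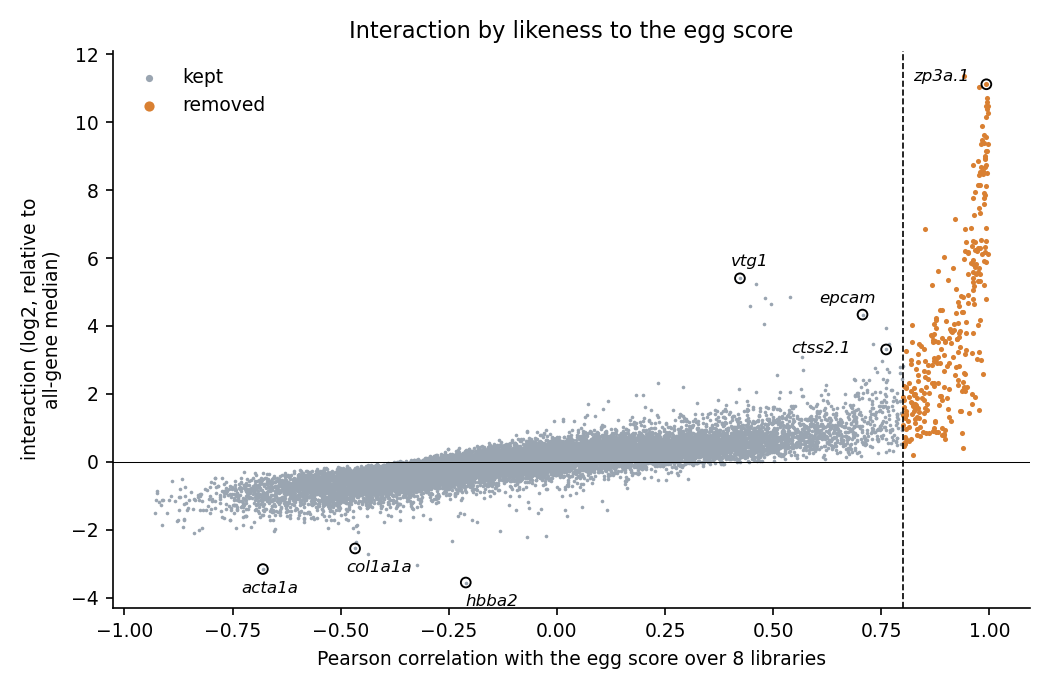
Interaction of each tested gene (vertical axis, log2, relative to the median of all genes) against its Pearson correlation with the egg score over the 8 libraries (horizontal axis); the dashed line is the limit of 0.8, grey points are kept and orange points removed genes. Kept genes slope upward, with a median interaction of 1.25 for the 173 genes with a correlation above 0.7 and up to 0.8. It was -1.12 for the 56 genes from -1 to -0.8. The slope is in part set in advance, because the score itself has an interaction of 9.29.

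The removal limit is a line through a continuous cloud. The 5 kept genes of at least 5 CPM nearest to it were jdp2b (correlation 0.798), ssna1 (0.797), trmt5 (0.795), si:ch211-263m18.4 (0.794) and pou5f3 (0.794), with interactions of 0.94, 1.04, 1.43, 2.61 and 2.78. The 5 removed genes nearest to it were trdmt1 (0.80), acadm (0.802), cuedc2 (0.803), uros (0.804) and dennd2db (0.806), with interactions of 1.08, 0.47, 0.55, 1.29 and 2.19. pou5f3 codes for a transcription factor of the early zebrafish embryo that is supplied by the mother. Across the kept genes the median interaction was higher bin by bin with the correlation to the egg score, from -0.77 for correlations between -0.8 and -0.5 to 0.12 between -0.2 and 0.2 and 0.79 between 0.5 and 0.7. The egg score itself has an interaction of 9.29, so the correlation of a gene with it holds part of that gene's own interaction. The slope is therefore in part set in advance and does not show remaining egg RNA. The part of remaining egg RNA in these values was not tested.

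The injury changes of the genotypes were alike in direction for the genes called in both. Of the kept genes 633 were called in wild-type injury (555 higher and 78 lower, beside 3.86% of all genes tested, 2.9% higher and 0.952% lower) and 552 in mutant injury (504 higher and 48 lower, beside 3.19% of all, 2.94% higher and 0.251% lower). Called in both were 348, and all 348 went the same way, 323 up and 25 down. The changes of these comparisons share no library, but both tests use the same variance per gene from the same fit. The calls in both genotypes are therefore not independent. The removal rule also took out genes whose injury changes ran opposite ways. Of the 295 removed genes tested, 0 had an injury change above 0 in wild type, and 275 had one in mutants. The agreement in direction and the correlations that follow are therefore in part set by the rule. Over the 18819 kept genes the wild-type and mutant changes had a Pearson correlation of 0.659 and a Spearman correlation of 0.582, across genes, which are not independent replicates. A further 489 genes were called in 1 genotype and not the other, 285 in wild type and 204 in mutants, but of these 489 only col1a1a was called in the interaction and 69 had an unadjusted interaction p under 0.05. For the remaining genes a call in 1 genotype is therefore not shown to be a difference between genotypes. The split of the injury calls into rises and falls moved with scaling and method. Before centring, the median injury change of all genes tested was 0.29 in wild type and 0.37 in mutants. With TMM, 410 kept genes were called higher and 150 lower in wild type, and 182 and 59 in mutants. With DESeq2 these were 781 and 708, and 516 and 311.

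Among the genes with the largest rise in both genotypes, crlf1a, a subunit of a secreted cytokine complex, went from 0.937 and 1.89 to 62.3 and 100 CPM in wild type and from 2.1 and 3.07 to 71.3 and 72.2 CPM in mutants. The wild-type and mutant ranges at 1 wpi overlapped. Its interaction was -0.81 ± 0.54 (95% interval from -1.98 to 0.36). ndnf, which codes for a secreted neuron-derived factor, rose from 9.99 and 9.34 to 204 and 187 CPM in wild type and from 7.24 and 7.66 to 190 and 200 CPM in mutants, with an interaction of 0.24 ± 0.39 (95% interval from -0.61 to 1.09). The tubulin gene tubb6 (interaction -0.36 ± 0.56), the sodium channel gene scn4ab (0.34 ± 0.57), the apolipoprotein gene apoeb (-0.25 ± 0.43), the matrix link protein gene hapln1a (-1.19 ± 0.64) and fkbp5 (-0.83 ± 0.47), a co-chaperone of the glucocorticoid receptor, also rose in both. None of these passed in the interaction, and the limma adjusted p was 1.00 for each.

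Among the genes that fell in both genotypes, cyp19a1b, the brain aromatase of radial glia, went from 12.3 and 5.31 to 0.0498 and 0.481 CPM in wild type and from 17.7 and 14.2 to 1.05 and 0.352 CPM in mutants. Its injury change was -3.17 in wild type and -3.71 in mutants, and its interaction was -0.55 ± 0.67. The injured values lay near or below the pseudocount of 1 CPM, so these falls are understated. The interaction ran from -4.82 to 0.47 over 19 alternatives and was above 0 with edgeR and DESeq2, so which genotype fell more is not shown. The muscle parvalbumin gene pvalb3 fell by 4.69 in wild type and by 3.77 in mutants, with an interaction of 0.91 ± 0.58. Of the 8 genes with the largest mean fall in both genotypes, 7 are genes of muscle. The muscle sums given above moved with them, and their part in these falls was not tested.

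**Figure D2:**
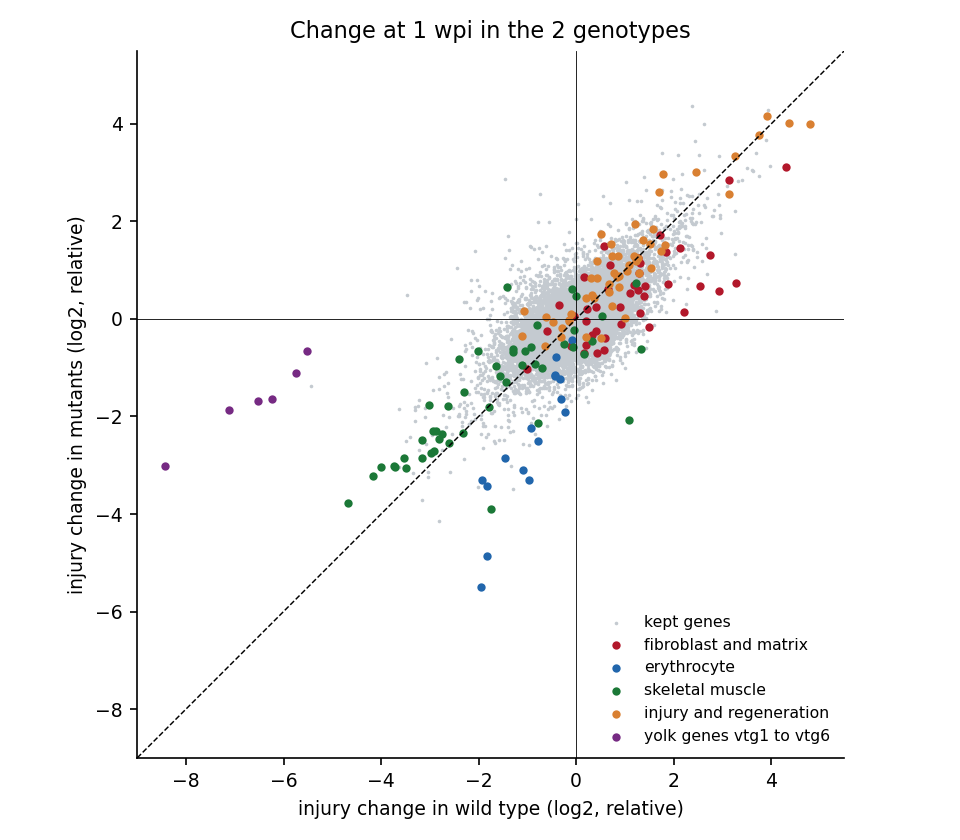
Injury change at 1 wpi in mutants (vertical axis) against that in wild type (horizontal axis), both log2 and relative to the median of all genes, for kept genes; the dashed line marks equal change and colours mark gene lists. Fibroblast and matrix genes lie mostly below the line, erythrocyte genes all below it, and the yolk genes vtg1 to vtg6 far to the left.

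Collagen genes gave the clearest lower interaction. col1a1a, the alpha-1 chain of type I collagen, was at 6.51 and 5.76 CPM in uninjured wild type, 73.6 and 94.4 CPM in injured wild type, 19.7 and 27.5 CPM in uninjured mutants, and 43.0 and 61.1 CPM in injured mutants. Mutants were above both wild-type libraries before injury and below both at 1 wpi, and no library overlapped between genotypes in either state. Its correlation with the egg score was -0.467. The mean CPM rose 13.7-fold in wild type and was 2.2-fold higher in mutants. On the fitted scale of log2(CPM + 1), relative to the all-gene median, the change was 3.28 in wild type (limma, adjusted p = 3.69e-04). In mutants it was 0.74 (limma, adjusted p = 0.0977). The interaction was -2.55 ± 0.46 (limma, adjusted p = 0.0374, 95% interval from -3.56 to -1.53). It was negative under each of 19 alternative settings and passed in 9. These were pseudocounts of 0.5 and 2, a minimum of 5 CPM, TMM scaling, DESeq2 (adjusted p = 1.38e-06), weights by injury state and a replicate block. The others were the fits without uninjured wild type 1 or 2, where a pass is not support. In the replicate block injured wild type rests on library 1. It did not pass with edgeR, without a filter, with the egg score as covariate or without both libraries richest in egg genes. The interaction also did not pass without injured wild type 1 or 3, uninjured mutant 1 or 2, or injured mutant 1 or 2.

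Another type I collagen chain gene, col1a2, was at 42.3 and 22.9 CPM in uninjured wild type, 268 and 329 CPM in injured wild type, 69.2 and 93.1 CPM in uninjured mutants, and 148 and 160 CPM in injured mutants. It has the same order of groups as col1a1a with no overlap between genotypes. Its interaction of -2.37 ± 0.46 missed the threshold (limma, adjusted p = 0.0579; 0.00195 to 0.450 over 19 alternatives), and it passed without uninjured wild type 1 (0.00406) or 2 (0.0243). The duplicate gene col1a1b had an interaction of -2.07 ± 0.55 (adjusted p = 0.360; 0.0146 to 1.00 over the alternatives) and passed without uninjured wild type 1 (0.0146). These chains are alike in sequence, and how reads shared by copies were counted is not given, so the split between col1a1a and col1a1b is uncertain.

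The list of fibroblast and matrix genes went the same way as the type I collagens. Of its 42 tested members 1 (col1a1a) was called lower and 0 higher by limma, beside 0.00523% of all genes lower and 0.56% higher. With edgeR 0 were called, and with DESeq2 2 lower, beside 222 of all 19114 genes called by DESeq2 in either direction. There were 6 with an interaction above 0, beside 49.2% of the kept genes, and the median was -0.66, beside -0.01 for the kept genes. The members had a median correlation with the egg score of -0.309. Kept genes with correlations between -0.5 and -0.2 had a median interaction of -0.311. The part of this in the list values was not tested. In 11 members each of the 4 pairwise mutant changes (injured minus uninjured library) lay below each of the 4 wild-type ones, beside 3.61% of all genes. In wild type 14 members rose, beside 2.9% of all genes, and in mutants 8, beside 2.94%, with median injury changes of 1.02 and 0.51. Besides the type I collagens, the members with an unadjusted p under 0.05 were postnb (periostin, -1.88 ± 0.53), fbn2b (a fibrillin, -1.67 ± 0.65), fn1a (fibronectin, -1.45 ± 0.47) and col6a3 (a type VI collagen chain, -1.17 ± 0.48), which are named after their values were seen. None of these 4 passed (adjusted p from 0.473 for postnb and 0.875 for fn1a to 1.00).

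For postnb the levels were 9.68 and 5.39 CPM in uninjured wild type, 52.9 and 63.8 CPM in injured wild type, 10.4 and 16.9 CPM in uninjured mutants, and 25.6 and 31.7 CPM in injured mutants. For fn1a they were 9.01 and 6.30 CPM in uninjured wild type, 64.6 and 74.0 CPM in injured wild type, 9.49 and 14.0 CPM in uninjured mutants, and 36.5 and 41.5 CPM in injured mutants. In both genes the injured wild-type libraries stood well above the injured mutant ones. Summed over 43 entries of the list, the level was 1086 and 777 CPM in uninjured wild type, 2410 and 2724 CPM in injured wild type, 838 and 1157 CPM in uninjured mutants, and 1909 and 2199 CPM in injured mutants. The list median was -0.78 without uninjured wild type 1, -0.27 without uninjured wild type 2, and -0.64 with TMM scaling.

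**Figure D3:**
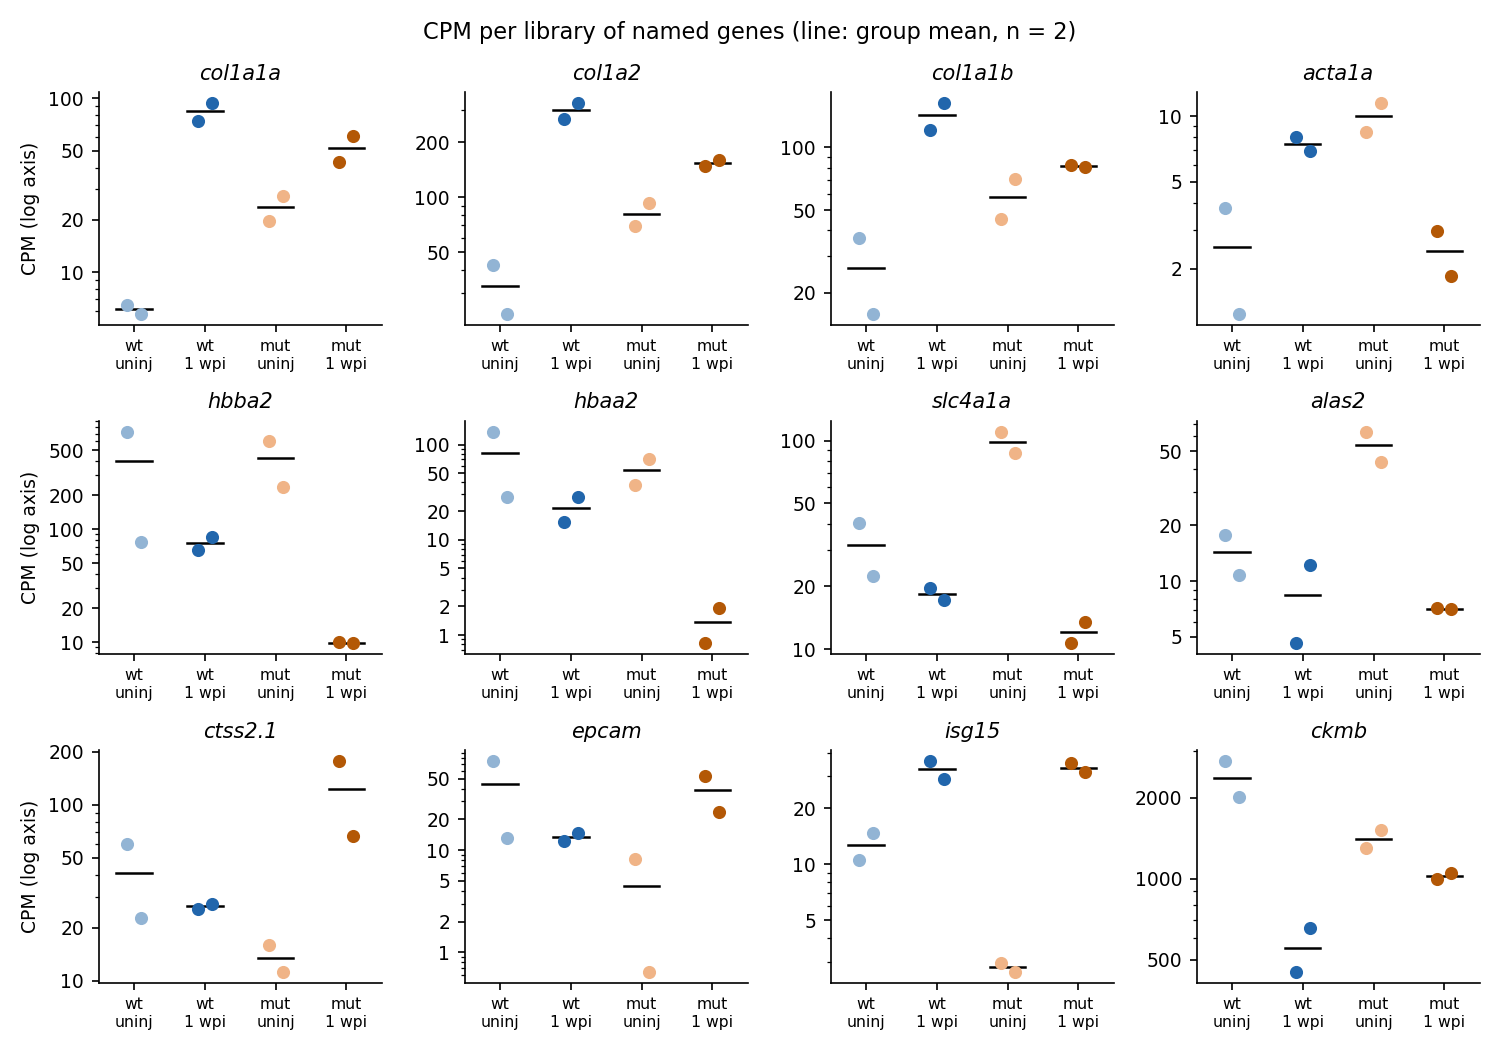
CPM (log axis) of 12 named genes in each library by group; points are libraries and lines group means of 2. For col1a1a, col1a2 and col1a1b the mutant points lie above wild type before injury and below it at 1 wpi, and for hbba2 and hbaa2 the injured mutants lie lowest.

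Genes of red blood cells had lower interactions as a group. All 16 tested members of the erythrocyte list had an interaction below 0, with a median of -1.40, and 12 had every pairwise mutant change below every wild-type one, beside 3.61% of all genes. None was called by limma, 0 by edgeR and 2 by DESeq2, beside 222 of all 19114 genes by DESeq2. An unadjusted limma p under 0.05 was reached by 9, all lower, beside 0.487% of all genes. In mutants 9 members fell with injury, beside 0.251% of all genes, and in wild type 1, beside 0.952%, with median injury changes of -2.37 and -0.86. The sum over 19 entries was 5825 and 1817 CPM in uninjured wild type, 1216 and 1469 CPM in injured wild type, 8410 and 6202 CPM in uninjured mutants, and 1200 and 1178 CPM in injured mutants. The injured libraries were thus close to each other in this sum, while the uninjured ones were spread.

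slc4a1a, the band 3 anion exchanger of the red cell membrane, was at 40.3 and 22.5 CPM in uninjured wild type, 19.7 and 17.1 CPM in injured wild type, 110 and 87.4 CPM in uninjured mutants, and 10.7 and 13.4 CPM in injured mutants. Its interaction was -2.33 ± 0.49 (limma, adjusted p = 0.0903; 0.0117 to 0.665 over 19 alternatives), and it passed without uninjured wild type 1 (0.0117). alas2, which starts haem synthesis in red cells, stood at 17.8 and 10.8 CPM in uninjured wild type, 4.63 and 12.1 CPM in injured wild type, 63.7 and 43.7 CPM in uninjured mutants, and 7.12 and 7.05 CPM in injured mutants. Its interaction was -2.03 ± 0.63 (adjusted p = 0.684). For both genes the uninjured mutants were above every other library.

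The beta-globin gene hbba2 was at 729 and 76.5 CPM in uninjured wild type, 65.3 and 84.4 CPM in injured wild type, 608 and 236 CPM in uninjured mutants, and 10 and 9.78 CPM in injured mutants. The alpha-globin gene hbaa2 was at 137 and 28.1 CPM in uninjured wild type, 15.3 and 27.9 CPM in injured wild type, 37.2 and 70 CPM in uninjured mutants, and 0.822 and 1.94 CPM in injured mutants. Both globin genes were lower in each injured mutant library than in any other library. The interactions were -3.55 ± 1.08 for hbba2 (limma, adjusted p = 0.614; 0.00111 to 1.00 over 19 alternatives) and -3.04 ± 0.88 for hbaa2 (0.498; 0.00813 to 1.00). Without uninjured wild type 1 the interactions were -5.32 for hbba2 and -4.31 for hbaa2. Globin copies are near identical, so the share of each copy is uncertain.

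Muscle genes were mixed in the interaction. Of 48 tested members of the list 0 were called by limma or edgeR. DESeq2 called 1 lower, beside 222 of all 19114 genes called in either direction. An unadjusted limma p under 0.05 was reached by 3 higher, beside 2.75% of all genes, and 1 lower, beside 0.487%. The list median was 0.38 and 33 members were above 0, beside 49.2% of the kept genes. With injury 20 fell in wild type, beside 0.952% of all genes, and 13 in mutants, beside 0.251%. Among fits without 1 library the median moved most with the uninjured wild-type libraries, of which number 1 held the most muscle RNA. Without number 1 the median was -0.43, and without number 2 it was 1.21. It was 0.70 without uninjured mutant 1 and 0.08 without uninjured mutant 2. ckmb, a muscle creatine kinase, was at 2754 and 2007 CPM in uninjured wild type, 449 and 654 CPM in injured wild type, 1301 and 1519 CPM in uninjured mutants, and 999.7 and 1052 CPM in injured mutants, with no overlap between genotypes in either state. Its interaction was 1.58 ± 0.41 (limma, adjusted p = 0.201; 0.0191 to 1.00 over 19 alternatives), and it passed without uninjured wild type 2 (0.0191).

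acta1a, a skeletal muscle actin gene, went the other way: 3.79 and 1.23 CPM in uninjured wild type, 8.02 and 6.93 CPM in injured wild type, 8.47 and 11.6 CPM in uninjured mutants and 2.97 and 1.85 CPM in injured mutants. Its interaction was -3.15 ± 0.65 (limma, adjusted p = 0.0755; 0.00383 to 0.476 over 19 alternatives), and it passed without uninjured wild type 1 (0.00959) or 2 (0.0495). Reads of actin copies may have been shared. The other lower genes picked by the same rule were olfml2a, which codes for an olfactomedin-like protein (-2.01 ± 0.74), nfe2, a transcription factor of blood cells (-1.95 ± 0.64), si:dkey-34d22.1 (-1.95 ± 0.80) and si:dkey-21e2.10 (-1.94 ± 0.66). Their limma adjusted p lay between 0.849 for nfe2 and 1.00. The interaction of olfml2a ran from -2.66 to -1.38 over fits without 1 library.

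The largest positive interactions among kept genes were those of vtg1 to vtg6, which code for vitellogenins, the yolk precursors that the liver of females makes. vtg1 was at 2295 and 50.6 CPM in uninjured wild type, 0.299 and 0.144 CPM in injured wild type, 11.3 and 2.63 CPM in uninjured mutants, and 0 and 0.132 CPM in injured mutants. The high value is that of uninjured wild type 1, which was also the richest uninjured library in egg genes. The 6 interactions ran from 4.59 ± 1.89 for vtg5 to 5.40 ± 1.75 for vtg1 (limma, adjusted p from 0.641 to 1.00, and from 9.36e-06 to 1.00 over the alternatives for vtg2). For vtg1 the interaction was 2.51 without uninjured wild type 1 (adjusted p = 0.451) and 8.27 without uninjured wild type 2 (1.60e-04), and without the latter all 6 passed. The correlation of vtg1 with the egg score was 0.423, so the removal rule kept it.

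epcam, an adhesion molecule of epithelia, was at 75.5 and 13.1 CPM in uninjured wild type, 12.4 and 14.8 CPM in injured wild type, 8.20 and 0.639 CPM in uninjured mutants, and 53.8 and 23.8 CPM in injured mutants. Its correlation with the egg score was 0.707. The interaction was 4.34 ± 1.15 (limma, adjusted p = 0.266; 2.08e-08 to 1.00 over 19 alternatives). It ran from 2.84 to 5.86 over fits without 1 library. In the epidermis list that holds epcam, 3 of 16 members were above 0, beside 49.2% of the kept genes, and the median was -0.63. The keratin gene krt8 had -0.73 ± 0.37.

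ctss2.1, a cathepsin S gene on the macrophage list, was at 59.7 and 22.6 CPM in uninjured wild type and 25.6 and 27.5 CPM in injured wild type. In mutants it was at 16 and 11.2 CPM uninjured, and at 178 and 66.7 CPM injured. In wild type it did not follow the sum of its list, which rose from 4215 and 3187 to 24373 and 22140 CPM. The interaction of ctss2.1 was 3.31 ± 0.70 (limma, adjusted p = 0.0669; 3.13e-06 to 0.563 over 19 alternatives). It ran from 2.48 to 4.12 over fits without 1 library. CR318588.1, an entry with no gene name, was at 57.9 and 86.9 CPM in uninjured wild type, 33.3 and 31.7 CPM in injured wild type, 11.6 and 12.2 CPM in uninjured mutants, and 97.6 and 29.1 CPM in injured mutants. Its interaction was 3.10 ± 0.66 (adjusted p = 0.0657; 1.38e-04 to 0.474 over 19 alternatives), and it passed without uninjured wild type 1 (0.0388) or injured mutant 2 (0.00362). In both genes the uninjured mutants were the lowest libraries. Correlations with the egg score were 0.761 for ctss2.1 and 0.567 for CR318588.1.

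The other higher genes picked by the rule were phex, a membrane peptidase of bone (3.46 ± 0.86, adjusted p = 0.187), ftr81, a TRIM family gene (3.47 ± 1.16, 0.715), and lhx8a, an oocyte transcription factor (3.94 ± 1.17, 0.454). Over fits without 1 library the interactions ran from 2.72 to 4.18 for phex, 1.93 to 5.01 for ftr81 and 2.41 to 5.45 for lhx8a. Of the 32 tested oocyte list genes 23 were removed. Of the 9 that remained 0 were called by limma, 0 by edgeR and 2 by DESeq2, beside 222 of all 19114 genes by DESeq2. An unadjusted limma p under 0.05 was reached by 3 of the 9, beside 3.24% of all genes. Their median was 1.03. dazl, a germ cell RNA-binding protein gene, had 2.40 ± 0.73 (limma, adjusted p = 0.467), and from 1.66 to 3.12 over fits without 1 library. Its correlation with the egg score was 0.721.

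The kept genes that met the level, the p and the separation of the naming rule numbered 179 higher and 59 lower. Of the 179, 105 had a correlation with the egg score above 0.5, and 1 had one below 0. Of the 59, all had one below 0. Because the score itself has an interaction of 9.29, genes chosen for a positive or negative interaction split this way in part by construction. In uninjured cord mutants were below wild type in 177 of the 179 and above in 58 of the 59, and at 1 wpi they were above in 163 of the 179 and below in 57 of the 59. An interaction chosen for its size must hold such crossing differences in part, so these counts describe the chosen genes only.

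**Figure D4:**
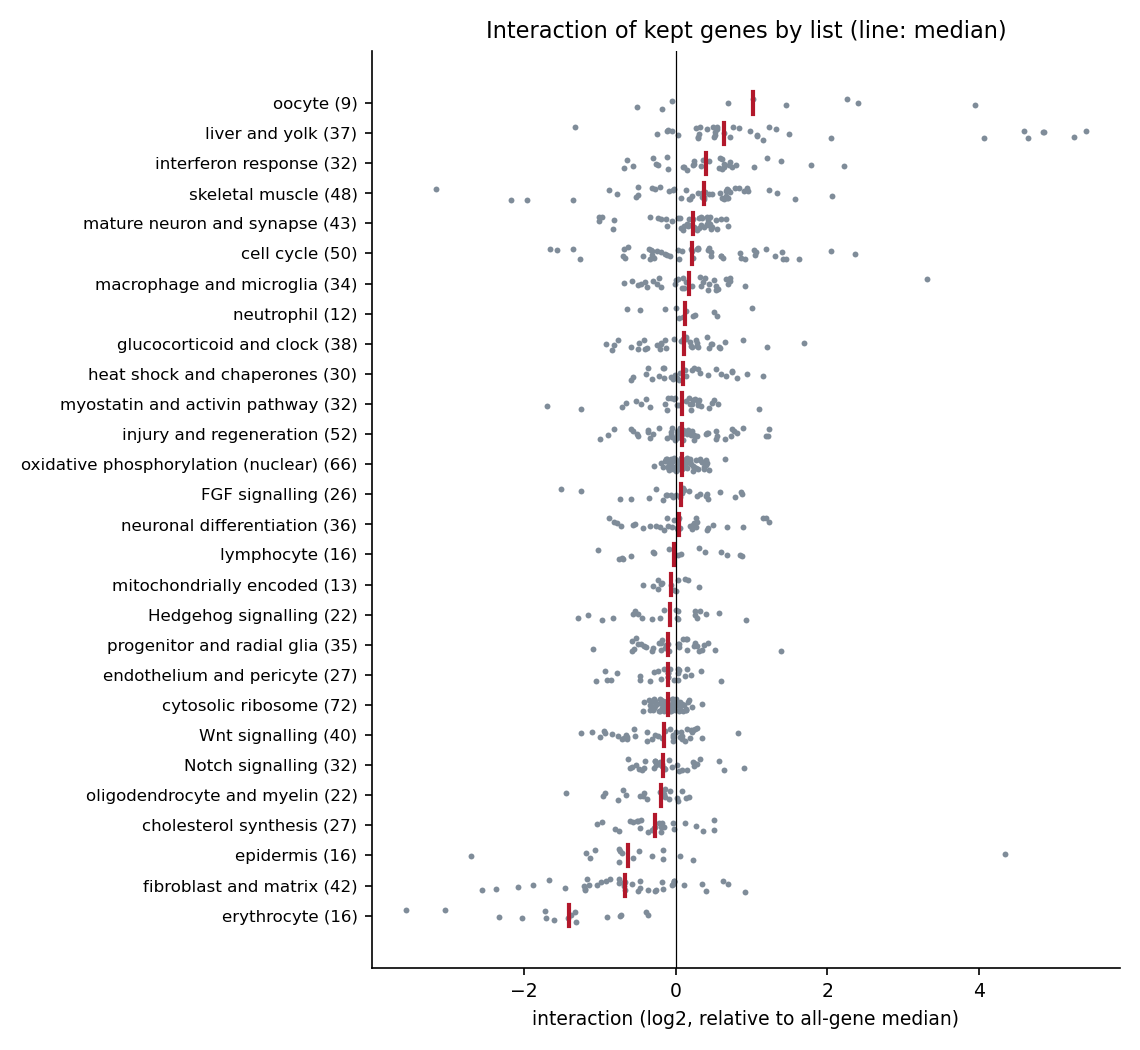
Interaction of the tested kept genes in each gene list (points, log2, relative to the median of all genes; number of genes in brackets) with the list median as a red line. Medians run from -1.40 for erythrocyte genes and -0.66 for fibroblast and matrix genes to 0.64 for liver and yolk and 1.03 for oocyte genes; the 4 lists of neural cells lie between -0.20 and 0.22.

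No gene on the neural lists was called in the interaction. Of 35 progenitor and radial glia genes, 36 of neuronal differentiation, 43 of mature neurons and synapses and 22 of oligodendrocytes and myelin, 0 were called by limma, edgeR or DESeq2. At an unadjusted limma p under 0.05 there were 2, 0, 0 and 0, beside 3.24% of all genes. Their medians were -0.09, 0.04, 0.22 and -0.20, and that of the progenitor list was 0.02 with edgeR. The median of the mature neuron list moved with the uninjured libraries of both genotypes. It was -0.10 without uninjured mutant 1 and 0.59 without uninjured mutant 2. Without uninjured wild type 1 it was 0.31, and without uninjured wild type 2 it was 0.06. nes, the nestin gene of neural progenitors, was at 15.7 and 27.0 CPM in uninjured wild type, 118 and 141 CPM in injured wild type, 33.9 and 47.3 CPM in uninjured mutants, and 115 and 129 CPM in injured mutants. It rose in both genotypes, by 2.3 and 1.22, the injured libraries overlapped, and its interaction was -1.09 ± 0.46 (95% interval from -2.09 to -0.09, adjusted p = 1.00).

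foxj1b, a transcription factor of motile cilia in cells of the central canal, had an interaction of 1.39 ± 0.64 from levels of 1.98 to 10.6 CPM. The tubulin gene tuba1b, a marker of growing axons, rose in wild type by 2.38 and in mutants by 1.5, with an interaction of -0.88 ± 0.40. For neurod2, a transcription factor of young neurons, the interaction was 1.15 ± 0.58. In mature neurons slc18a3a, the vesicular acetylcholine transporter gene, had 0.69 ± 0.52, and grin1a, an NMDA receptor subunit gene, had 0.48 ± 0.41. In the myelin list zwi, a myelin gene of fish, had -0.93 ± 0.41, and nkx2.2b, a homeobox gene of the ventral cord, had -1.44 ± 0.71. The limma adjusted p of each of these was 1.00, and intervals of this width do not show that the genotypes respond alike.

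The signalling lists were also without a call by limma, edgeR or DESeq2. In the myostatin and activin list of 32 genes the median was 0.09, and the smallest p were those of smad4a, the shared partner of the signalling Smads (-1.70 ± 0.66), and acvr2ab, an activin type II receptor (1.1 ± 0.62). smad4a was at 0.759 and 2.06 CPM in uninjured wild type, 4.73 and 6.30 CPM in injured wild type, 2.81 and 5.03 CPM in uninjured mutants, and 4.52 and 2.47 CPM in injured mutants. Uninjured wild type was lowest and injured wild type 3 highest, while the other libraries overlapped. The FGF list of 26 genes had a median of 0.07, with fgf2 at -1.5 ± 0.54 and fgf1b at -1.24 ± 0.57, both growth factor genes below 4 CPM in every library.

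The Wnt list of 40 genes had a median of -0.16; wif1, a secreted Wnt inhibitor, had -1.24 ± 0.56, and rspo1, a secreted Wnt enhancer, -1.1 ± 0.61. The Notch list of 32 genes had a median of -0.17, and the ligand gene dld had 0.90 ± 0.53 and hes6 0.64 ± 0.44. The Hedgehog list of 22 genes had a median of -0.07, and the ligand gene shha had 0.92 ± 0.64. Adjusted p was 1.00 for each gene named in these 5 signalling lists. An unadjusted limma p under 0.05 was reached by 1 in the myostatin and activin list and 1 in the FGF list, beside 3.24% of all genes.

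The interferon list of 32 genes had a median of 0.40 with 24 above 0, beside 49.2% of the kept genes. With the egg score as covariate the list median was -0.09. Of the list 0 were called by limma or edgeR and 1 by DESeq2, beside 222 of all 19114 genes by DESeq2. An unadjusted limma p under 0.05 was reached by 3, all higher, beside 2.75% of all genes. isg15, an interferon-induced ubiquitin-like protein gene, was at 10.5 and 14.8 CPM in uninjured wild type, 36.2 and 28.9 CPM in injured wild type, 2.96 and 2.63 CPM in uninjured mutants, and 35.2 and 31.3 CPM in injured mutants. The genotypes were apart before injury and overlapped at 1 wpi. It rose in mutants by 2.80 (adjusted p = 8.44e-04) and was 1.02 higher in injured wild type (0.0567), with an interaction of 1.78 ± 0.48 (adjusted p = 0.253; 0.0124 to 1.00 over 19 alternatives). stat1b, an interferon signal transducer, had 2.22 ± 0.83.

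Of the macrophage and microglia list of 34 genes, 14 rose in wild type, beside 2.9% of all genes, and 17 in mutants, beside 2.94%. The median interaction was 0.17, and 0 were called in the interaction by limma or edgeR. DESeq2 called 1, beside 222 of all 19114 genes. An unadjusted limma p under 0.05 was reached by 2, beside 3.24% of all genes. lgals9l1, a galectin gene, rose by 1.02 and 1.94, with an interaction of 0.91 ± 0.40. In the list of injury and regeneration genes 21 of 52 rose in wild type and 22 in mutants, beside 2.9% and 2.94% of all genes. The median interaction was 0.09, with 0 called by limma, edgeR or DESeq2. An unadjusted limma p under 0.05 was reached by 2, beside 3.24% of all genes. socs3a, a feedback inhibitor of cytokine signalling, rose by 1.78 and 2.97 with an interaction of 1.19 ± 0.53, and the immediate early gene fosab had 1.21 ± 0.52. ncf1, an oxidase subunit gene of neutrophils, had 1.01 ± 0.52, pdia4, a chaperone of the endoplasmic reticulum, 0.94 ± 0.46, and the clock genes cry1b and ciarta 1.21 ± 0.42 and 0.89 ± 0.46. None of these passed, with limma adjusted p from 0.726 for cry1b to 1.00.

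The cell cycle list of 59 lost 8 tested genes to the removal and kept 50. Of these 30 were above 0, beside 49.2% of all kept genes. The list median was 0.22, and it was -0.05 without uninjured wild type 1. None was called by limma, edgeR or DESeq2. An unadjusted limma p under 0.05 was reached by 5 higher, beside 2.75% of all genes, and 2 lower, beside 0.487%. plk1, a mitotic kinase, had 2.04 ± 0.67 (limma, adjusted p = 0.633), and ccna2, a cyclin, had 2.36 ± 0.84 (0.843). ccna2 was at 42.7 and 10.9 CPM in uninjured wild type, 12 and 8.23 CPM in injured wild type, 5.93 and 13.2 CPM in uninjured mutants, and 36.2 and 17 CPM in injured mutants. Its highest libraries were those richest in egg genes, with a correlation to the egg score of 0.762, and that of plk1 was 0.735. The interaction of ccna2 ran from 1.27 to 3.43 over fits without 1 library.

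**Figure D5:**
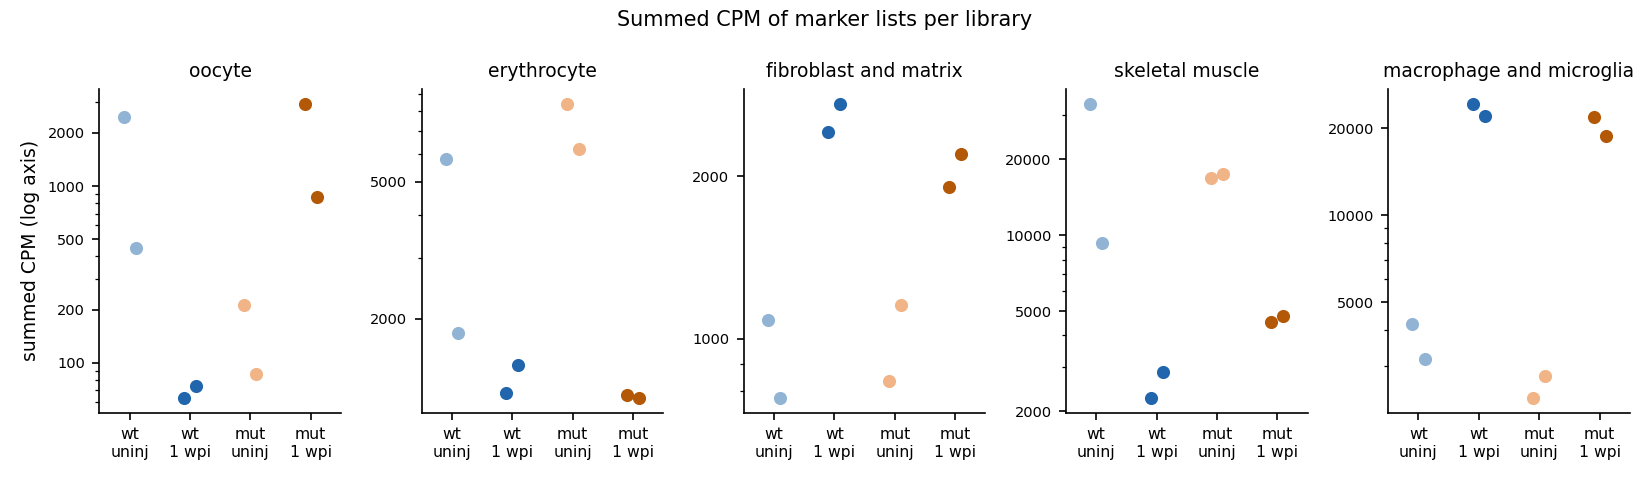
Summed CPM (log axis) of 5 marker lists in each library by group; points are libraries. The oocyte sum is highest in uninjured wild type 1 (2477) and injured mutant 1 (2928), the erythrocyte sum is between 1178 and 1469 in all injured libraries, and the macrophage sum is at least 18791 in all injured libraries.

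The contrasts between genotypes within 1 state place these values. In uninjured cord 0 kept genes were called by limma, beside 0% of all genes tested, and 0 by edgeR. DESeq2 called 57 kept genes, among 84 called of all 19114 genes tested. An unadjusted p under 0.05 was reached by 675 kept genes, beside 4.46% of all genes. At 1 wpi 3 kept genes were called, beside 0.267% of all genes, and they are named after their values were seen. slc40a1, the iron exporter ferroportin, was at 37.8 and 27.3 CPM in uninjured wild type, 41.2 and 50.3 CPM in injured wild type, 7.57 and 9.82 CPM in uninjured mutants, and 7.67 and 9.03 CPM in injured mutants. It was lower in each mutant library than in each wild-type library, with a difference of -2.34 at 1 wpi (limma, adjusted p = 0.0164), with an interaction of -0.62 ± 0.48. The entries si:dkey-18p12.4 (3.06) and zgc:113314 (2.16) were higher in injured mutants and near 0 CPM in wild type. Each of the 3 lost its call when any 1 injured or uninjured mutant library, or any injured wild-type library, was left out, and the count was then 0.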

How the data were processed

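RNA-seq of 8 spinal cord libraries was analysed from the CPM values deposited by the authors, 25309 entries by gene symbol. Each CPM value was a whole multiple of the value of 1 read, within 0.01 reads, for 100% of values, which gave the reads and the depth per library; 0 CPM columns belonged to no sample in use. The submitters' processing notes name Bowtie2, Cufflinks and Cuffdiff with no version or role. The sources used here do not give build, annotation, counting or strand, so antisense and overlapping genes and near-identical copies are uncertain. Libraries of a group differed by more than counting noise (chi-square per degree of freedom from 16.7 to 140).

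Each gene's log2(CPM + 1) was fitted by limma-trend (limma 3.58.1 in R 4.3.3) with 4 group means and 4 residual degrees of freedom, on 19114 genes, with Benjamini-Hochberg adjustment over all of them at 0.05; tests are two-sided. The pseudocount understates changes of low genes. ± is SE. Reads recovered from CPM were tested with edgeR 4.0.16 and DESeq2 1.42.0 as alternatives, beside other pseudocounts, filters, TMM scaling, weights, an egg score covariate, a replicate block and left-out libraries. The method was also run on simulated counts. Their spread was fixed and not taken from these libraries, and they held no unequal levels of marker genes of other tissues. That run therefore does not show how the method fares here.

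The genes and the 29 lists were chosen with earlier results of these data known; of 1037 listed symbols 980 were found directly and 9 under another symbol. Genes were named by rule: mstnb and the egg genes, called genes, the 12 largest interactions each way with at least 5 CPM, an unadjusted p under 0.05 and separated libraries, up to 2 genes per list by smallest p, genes nearest to the removal limit, and the largest changes shared by the genotypes. Not every gene of the rule is printed. No sequence is printed.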

Additional observations from a re-analysis of the deposited data

Results flagged for a closer look

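Of the 108 genes that passed the test of a different injury change between the genotypes, 7 are among the genes whose interaction is given here. They are the egg genes zp3a.1 (interaction 11.11), zp3f.1 (10.27), zp3e (8.52), zp2.2 (8.74), zar1l (9.13) and h1m (7.48), which define the score and are not among the kept genes, and the collagen gene col1a1a (-2.55), which is. Because the egg genes define the score and were chosen with earlier results of these data known, their passes are a description and not evidence. With 2 libraries per group no library could be tested as standing apart within its group.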

How the results depend on the processing

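The count of kept genes called in the interaction was 1 and stayed 1 with pseudocounts of 0.5 and 2, a minimum of 5 CPM and TMM scaling. It was 0 without a filter, 0 with edgeR (531 at an unadjusted p under 0.05), 32 with DESeq2, 7 with weights by injury state, 664 with the egg score as covariate, 6 without the libraries richest in egg genes (uninjured wild type 1 and injured mutant 1), 8 with removal above 0.9 and 108 with no gene removed. Leaving out 1 library gave 0 to 148, the 148 without uninjured wild type 2 and 14 without uninjured wild type 1. For wild-type injury edgeR called 421, DESeq2 1489, the covariate fit 198, the fit without the richest pair 257, and leaving out 1 library gave 50 to 3611. For mutant injury the count was 367 without a filter, 241 with TMM, 170 with edgeR, 4191 with the covariate, 301 without the richest pair and 56 to 1603 without 1 library. For genotype in uninjured cord DESeq2 called 57, the covariate fit 7, the fit without the richest pair 6, and leaving out 1 library gave 0 to 670. At 1 wpi the count was 1 without a filter, 0 with TMM, 0 with edgeR, 21 with DESeq2, 62 with weights, 1101 with the covariate, 5 without the richest pair and 0 to 16 without 1 library. The causes were not tested. Replicate numbers of the labels are not known to pair libraries. Deviations from the group means of libraries with the same number correlated by 0.30, 0.21 and 0.20 among the other 3 groups, but by -0.0048, 0.14 and 0.014 between injured wild type 1 and the other libraries numbered 1, so the numbers were not taken as pairs. A replicate block leaves injured wild type 3 alone in its block, so that injured wild type rests on library 1. It called 38 kept genes in the interaction, 1099 in wild-type injury, 1218 in mutant injury, 47 for genotype in uninjured cord and 21 at 1 wpi. With the block 17 named genes passed that otherwise did not, col1a2 (adjusted p = 0.0348), slc4a1a (0.0474), hbba2 (0.0348), acta1a (0.0300), vtg1 to vtg6, epcam, ctss2.1, CR318588.1, phex, ftr81, lhx8a and si:ch211-263m18.4, and 0 named genes lost a call; mstnb had -0.15 and cyp19a1b 0.13. With the egg covariate the median interaction of the kept genes, before centring, was 1.34 in place of 0.08, and these genes changed sign: ckmb -0.10, foxj1b -0.11, uros -0.34, zp2.2 -0.43, ndnf -0.98, ssna1 -1.13, lgals9l1 -1.19, zp3a.1 -1.22, pdia4 -1.32, h1m -1.34, zp3f.1 -1.45, zar1l -1.62, acadm -1.69, trdmt1 -1.76, zp3e -1.79, trmt5 -1.83, jdp2b -2.16, dennd2db -2.23, ccna2 -2.33, ftr81 -2.36, plk1 -2.43, cuedc2 -2.52, ctss2.1 -2.67, pvalb3 -3.76, lhx8a -4.52, epcam -5.79, vtg1 -7.92, vtg3 -8.12, vtg4 -8.57, vtg2 -8.68, vtg6 -9.12, vtg5 -9.27, fkbp5 0.34, olfml2a 0.58, nkx2.2b 0.73, si:dkey-34d22.1 1.48 and hapln1a 1.76. Sign changes elsewhere were those of mstnb without injured mutant 2 or uninjured mutant 1 (-0.17 to 0.59 without 1 library), tubb6 without uninjured mutant 1 (-0.91 to 0.23), pvalb3 without uninjured wild type 1 (-0.035 to 1.83), apoeb and cyp19a1b without uninjured wild type 2 (-0.61 to 0.10 and -1.24 to 0.12), cyp19a1b with edgeR (0.42) and DESeq2 (0.47), and acadm (-0.033), cuedc2 (-0.12) and pvalb3 (-0.26) without the richest pair. Of 1626 values of named genes under the alternatives, 1485 kept direction and side of the threshold. Of 28 list medians, 6 kept their sign under all 19 alternatives (oocyte, erythrocyte, oligodendrocyte, fibroblast and matrix, epidermis and Wnt) and 22 changed it under at least 1. The covariate fit called 17 mature neuron genes higher and 13 liver and yolk genes lower. For zp3a.1, zp3f.1, zp3e, zp2.2, zar1l and h1m the covariate holds the gene itself, so their change of sign there cannot inform on them. The intervals given rest on the spread between libraries, and 2 libraries per group limit what can be seen.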

Other observations

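Lists of other cell types and of general cell functions were read the same way and held 0 calls by limma, edgeR or DESeq2 in the interaction. The liver and yolk list of 37 genes had a median of 0.64 with 32 above 0, beside 49.2% of the kept genes. An unadjusted limma p under 0.05 was reached by 6, all higher, beside 2.75% of all genes. These 6 are the yolk genes vtg1 to vtg6 described above, so they are not a further result. Without uninjured wild type 1 the list median was -0.81, and without uninjured wild type 2 it was 2.27 with all 37 above 0. A replicate block called 9 higher and weights by injury state 1. Its injury change had a median of -2.31 in wild type and -1.37 in mutants. Endothelium and pericyte genes (27) had a median of -0.10, lymphocyte genes (16) of -0.02 and neutrophil genes (12) of 0.12. In each of these 3 lists 0 genes had an unadjusted limma p under 0.05, beside 3.24% of all genes.

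Genes of cholesterol synthesis had a median interaction of -0.27 with 5 of 27 above 0, beside 49.2% of the kept genes. Their median injury change was 0.05 in wild type and -0.31 in mutants. Nuclear genes of oxidative phosphorylation had 0.08 (44 of 66 above 0), the 13 mitochondrially coded genes -0.06, and the 72 tested genes of the cytosolic ribosome -0.11 (18 above 0). The ribosome median was -0.68 without uninjured wild type 1 (1 above 0), 0.54 without uninjured wild type 2 and 0.26 without uninjured mutant 1 (69 above 0 in each). That of oxidative phosphorylation was -0.21 without uninjured wild type 1 and -0.14 without uninjured mutant 2 (16 above 0 in each), and that of the mitochondrially coded genes was 0.44 without uninjured mutant 1 (13 above 0). The mitochondrially coded genes had a median injury change of -1.26 in wild type, where 3 fell, and of -1.38 in mutants, where 1 fell. Chaperone genes (30) and clock and glucocorticoid genes (38) had medians of 0.09 and 0.11.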
